A study of Mus musculus with 2 samples.

Results

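Regulated exocytosis is the last step of insulin release, in which secretory granules fuse with the plasma membrane of the islet cell. The 9 genes described here encode parts of that machinery: the SNARE genes Snap25, Stx1a and Vamp2, the calcium sensor genes Syt4 and Syt7, the priming and scaffold genes Unc13a and Rims2, and the granule GTPase genes Rab3a and Rab27a. They were taken by name out of the 34844 gene names on the array, and every gene probe that carried one of these names was kept, 12 probes in all. Of these, 9 probes, 1 for each gene, passed the filter on dim spots and were tested. The other probes of Vamp2, Syt7 and Unc13a did not pass it.

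Islets came from control mice and from knock-in mice with RbΔK7, a retinoblastoma protein that resists phosphorylation. They were released with collagenase, picked by hand and frozen at once. Each of 2 arrays carried 1 control sample labelled with Cy3 and 1 mutant sample labelled with Cy5, so each probe gave 2 ratios of mutant over control, from 2 independently harvested pairs, and genotype cannot be told apart from dye (no dye swap, both arrays on 1 slide). The knock-in is described only as such, and strain, age and sex were not given in the sources used here. An islet sample holds beta, alpha, delta and other cells. In such a mixture fewer cells of a type and less RNA per cell cannot be told apart. The islet hormone genes Ins1, Ins2, Gcg and Sst were well above background in all 4 samples.

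In a fusion event, a SNARE on the granule (VAMP2) zips up with SNAREs on the plasma membrane (syntaxin 1A and SNAP-25) and pulls the membranes together. Rab GTPases and their effectors bring the granule to the membrane, Munc13 and RIM proteins make it ready, and synaptotagmins couple fusion to the rise in calcium that glucose evokes. Neurons use close relatives of the same proteins for transmitter release, and loss of several of them lowers insulin secretion in mice.

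The values rest on probes of 60 bases, and the first 30 bases are shown for the 7 probes that the results turn on, 5′ to 3′ as the scanner files give them, with the mm9 position of the whole probe. Stx1a and Rab27a are shown because the arrays opposed each other for the one and not for the other. The pairs of Vamp2 and Syt7 are shown because 1 probe of each pair was well above background in every sample and the other in none. Snap25 is shown because its probe opens with a CA repeat of 20 bases (in capitals). A run of at least 16 bases of CA or TG repeat was found in 110 of 55681 gene probes (0.198%), and whether it affects hybridisation was not tested.
Snap25 (chr2:136607709-136607768, + strand): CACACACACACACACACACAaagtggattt
Stx1a (chr5:135526477-135526536, + strand): agcaggccatagtcctaacaggcatggtaa
Rab27a (chr9:72944668-72944727, + strand): agggactctttgaaacaccaaactcatcat
Vamp2, tested (chr11:68905527-68905586, + strand): agtgtgagagagaaagcaagctatttcctt
Vamp2, not tested (chr11:68903917-68903976, + strand): attaaaggttttatgcccctttgtccagcc
Syt7, tested (chr19:10527150-10527209, + strand): ggttttgtttagcttttctttgggaaaaca
Syt7, not tested (chr19:10522834-10522893, + strand): acctgtcctggaagagcggaccaggtgaag

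None of the 9 exocytosis genes passed the test for a difference between mutant and control islets. Mean log2 ratios lay between -0.45 for Rab27a and 0.25 for Syt4, with a median of -0.05 over the 9 genes against 0.01 over all tested probes. Of 22266 probes tested with limma, 85 (0.382%) passed at an adjusted p under 0.05, so 0 of 9 lies near the background share. At an unadjusted p under 0.05 limma gave 1 of the 9 (Rab27a), against 11.4% of all tested probes. The 95% intervals of all 9 means lay within 2-fold in either direction, and the bound farthest from 0 was that of Rab27a at -0.79, or 1.73-fold. These intervals rest on 1 residual degree of freedom per probe and on a spread borrowed from all probes. Under the reported processing (loess), a change of 2-fold thus lay outside the fitted interval of each of the 9 genes. This does not bound the change under other settings. With median centring, which raised the tested probes as a whole, Snap25 had the highest mean of the 9 genes, 1.01, or just over 2-fold. The offset used against dim spots draws the ratios of dim probes towards 0. For Rims2 the mean was -0.20 as reported, and -0.43 with an offset of 0. It was -0.58 with Agilent's processed signals, which also differ in background correction and dye normalization.

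**Figure D1:**
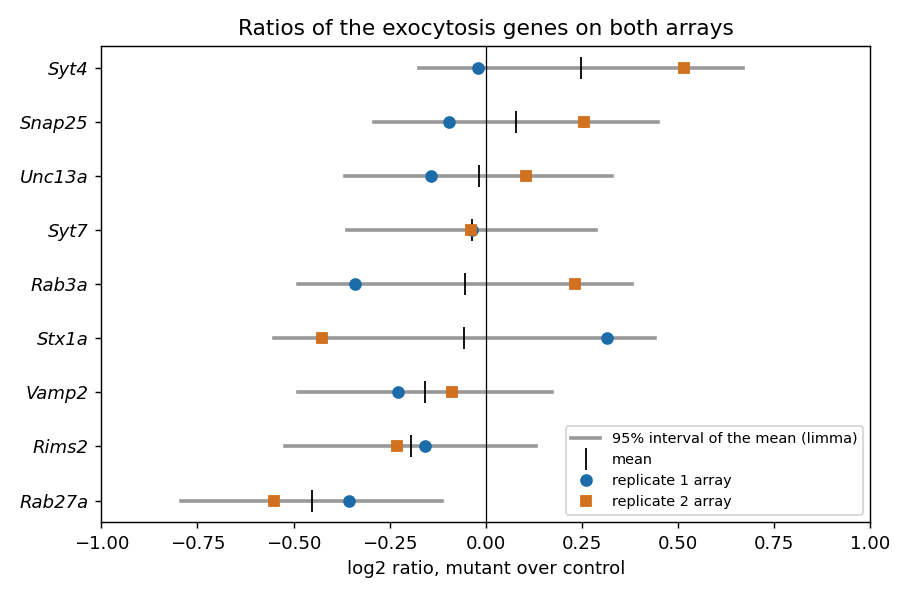
Log2 ratio of mutant over control for each exocytosis gene on the replicate 1 array (circles) and the replicate 2 array (squares), with the mean (bar) and limma's 95% interval (grey line). Rab27a lies farthest to the left, from -0.36 to -0.55, and the ratios of Stx1a, 0.31 and -0.43, lie on opposite sides of 0.

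The direction of the genes was shared by the arrays for 4 of the 9. Rab27a, Rims2, Vamp2 and Syt7 were lower in the mutant on both arrays, against 25.3% of all tested probes. None was higher on both, against 32.3% of all tested probes. Snap25, Syt4, Unc13a and Rab3a, 4 of 9 (44.4%), were lower on the replicate 1 array and higher on the replicate 2 array, against 21.3% of all tested probes. Stx1a alone ran the other way. Median centring, which raised the median ratio of the tested probes, put the means of Rab27a, Vamp2 and Syt7 above 0. The mean of Rims2 was then 0.000191, from ratios of opposite sign. With 9 genes these are descriptions and were not tested.

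Snap25 encodes the SNARE that stays on the plasma membrane and supplies a pair of helices to the fusion complex. Its probe was the brightest among those of the 9 genes. Its log2 levels (loess-normalized intensities, scaled between arrays) were 12.39 (control) and 12.29 (mutant) in replicate 1, and 11.95 and 12.21 in replicate 2. Both mutant samples lay between the control samples, so the groups overlapped. The ratios were -0.10 and 0.26 (mean 0.08 ± 0.25, SD, n = 2; 95% interval -0.29 to 0.45; limma adjusted p = 0.898). The control samples differed from each other by 0.44, more than the mutant differed from its control on either array.

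Stx1a, the plasma membrane syntaxin that pairs with SNAP-25, had the widest disagreement between arrays of the 9. Its probe was dim, though well above background in every sample. In the control sample of replicate 1 its mean signal was 57.2 against a local background of 27.5. Its log2 levels were 6.98 (control) and 7.29 (mutant) in replicate 1, and 7.37 and 6.94 in replicate 2. The mutant sample was thus the higher of the first pair and the lower of the second. The ratios were 0.31 and -0.43 (mean -0.06 ± 0.52, SD, n = 2; 95% interval -0.55 to 0.44; limma adjusted p = 0.952). The deposited log ratios of Feature Extraction, turned to log2, were 0.79 and -0.79, with deposited p-values of 0.00339 and 0.00111. Those p-values cover the technical error of 1 spot on 1 array and no spread between samples, and the log ratios had opposite signs.

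Vamp2, the granule SNARE also called synaptobrevin 2, had log2 levels of 9.64 and 9.41 in the control and mutant samples of replicate 1 and of 9.40 and 9.32 in those of replicate 2. Both mutant samples were below their own controls, but the mutant sample of replicate 1 was level with the control sample of replicate 2. The ratios were -0.23 and -0.09 (mean -0.16 ± 0.10, SD, n = 2; 95% interval -0.49 to 0.17; limma adjusted p = 0.734). Its other probe lies 1610 bases upstream on mm9 and was not well above background in any of the 4 samples, so it gives no ratio to set beside the first.

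Syt4 and Syt7 encode synaptotagmins, membrane proteins with paired C2 domains. Syt7 is a high-affinity calcium sensor for insulin granule fusion. Syt4 lacks part of the calcium site and, in beta cells, is known as a brake on release at low calcium that appears as the cells mature. For Syt4 (chr18:31598394-31598453, mm9, - strand), log2 levels were 7.89 and 7.87 in the control and mutant samples of replicate 1, and 7.55 and 8.06 in those of replicate 2. The control and mutant levels of the first pair lay between those of the second. Its ratios of -0.02 and 0.52 gave the highest mean of the 9 genes (0.25 ± 0.38, SD, n = 2; 95% interval -0.17 to 0.67; limma adjusted p = 0.662). Syt7 was the steadiest, with log2 levels of 7.46, 7.42, 7.51 and 7.47 in the control and mutant samples of replicates 1 and 2. Its ratios were -0.03 and -0.04, and the 95% interval of its mean ran from -0.36 to 0.29 (limma adjusted p = 0.951). Its other probe, 4316 bases away on mm9, was not well above background in any of the 4 samples.

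Unc13a encodes Munc13-1, which opens syntaxin so that the SNARE complex can form. Its tested probe (chr8:74154416-74154475, mm9, - strand) was dim, with log2 levels of 6.87 and 6.73 in the control and mutant samples of replicate 1 and 6.53 and 6.64 in those of replicate 2. The control sample of replicate 2 did not clear the background there, and the levels overlapped. The ratios were -0.14 and 0.11 (mean -0.02 ± 0.18, SD, n = 2; limma adjusted p = 0.979). With Agilent's processed signals, which treat dim spots differently, they were -0.12 and 0.84, a mean of 0.36 (limma adjusted p = 0.747). The other Unc13a probe was well above background only in the mutant sample of replicate 2 and was not tested.

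Rims2, an active zone scaffold that binds Rab3 and Munc13 and docks insulin granules, had log2 levels of 6.66 and 6.50 in the control and mutant samples of replicate 1, and of 6.69 and 6.46 in those of replicate 2. Both mutant samples were below both control samples. The ratios were -0.16 and -0.23 (mean -0.20 ± 0.051, SD, n = 2; 95% interval -0.52 to 0.13; limma adjusted p = 0.653). The probe (chr15:39513319-39513378, mm9, + strand) did not clear the background in the mutant sample of replicate 1, and the offset used against such dim spots draws its ratios towards 0. With an offset of 0 the ratios were -0.38 and -0.47 (limma adjusted p = 0.484). With Agilent's processed signals the ratios were -0.64 and -0.51 (limma adjusted p = 0.461), and with median centring the mean was 0.000191.

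Rab3a and Rab27a encode the small GTPases that mark secretory granules and recruit the effectors that tether them. Rab3a (chr8:73282447-73282506, mm9, + strand) had log2 levels of 11.37 and 11.03 in the control and mutant samples of replicate 1, and of 11.01 and 11.24 in those of replicate 2. The ratios of -0.34 and 0.23 opposed each other, as did those of Snap25 (mean -0.05 ± 0.40, SD, n = 2; 95% interval -0.49 to 0.38; limma adjusted p = 0.947). Its control samples differed from each other by 0.36 and its mutant samples by 0.22, both more than the mean ratio.

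Rab27a had the lowest ratios of the 9 genes. Its log2 levels were 8.81 (control) and 8.46 (mutant) in replicate 1, and 8.69 and 8.14 in replicate 2. Both mutant samples lay below both control samples, and the control samples differed from each other by 0.12. The ratios were -0.36 and -0.55, a mean of -0.45 ± 0.14 (SD, n = 2; 95% interval -0.79 to -0.11), which is a level of 0.730 times the control, and it did not pass over all probes (limma adjusted p = 0.311; 0.168 to 0.733 over the alternatives). With median centring its mean was 0.29, below the shift of the tested probes in that setting. The deposited log ratios, turned to log2, were -0.54 and -0.77, with deposited p-values of 0.0103 and 0.000396 for the error within each array. Levels of mutant and control did not overlap for Rab27a and Rims2, 2 of the 9 genes, against 37.8% of all tested probes.

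**Figure D2:**
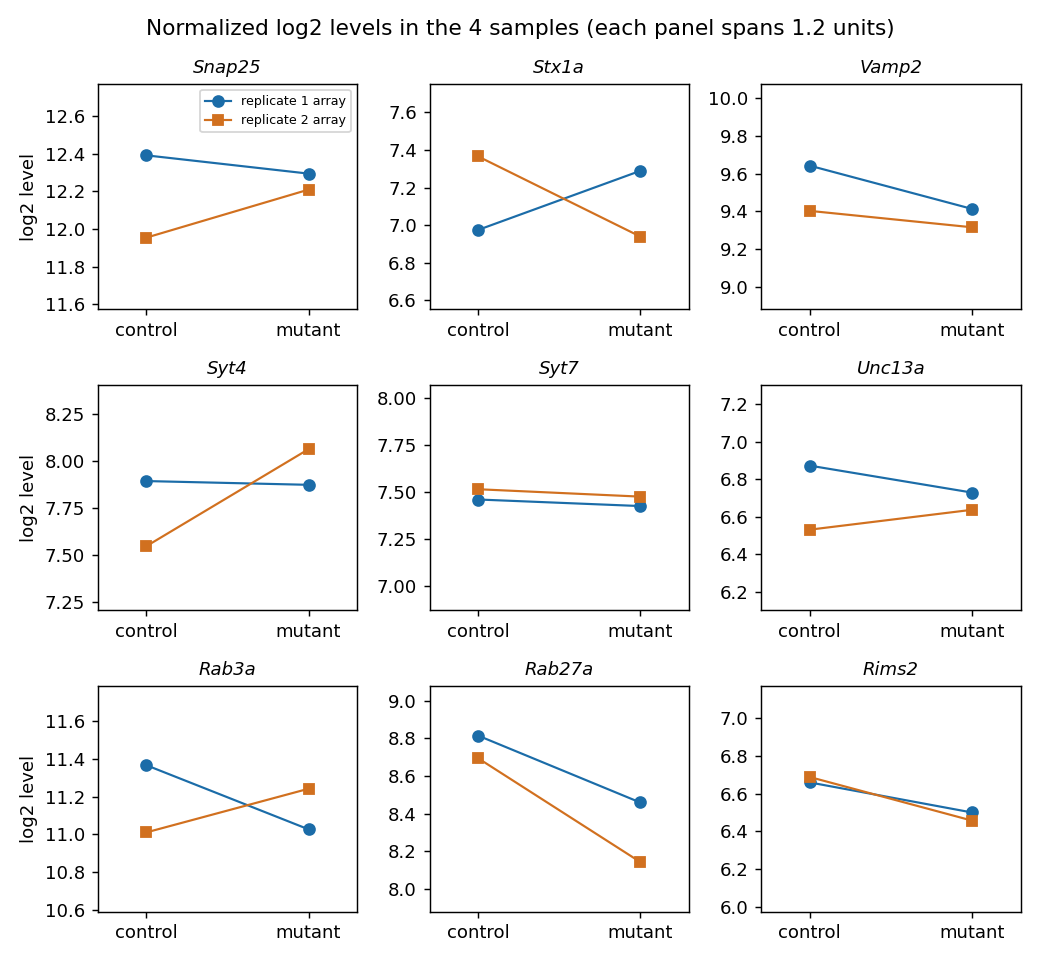
Normalized log2 level of each exocytosis gene in the control and mutant samples of replicate 1 (circles) and replicate 2 (squares), with a line joining the samples of 1 array. Both lines of Rab27a, Vamp2 and Rims2 slope down, those of Syt7 are nearly flat, and those of Stx1a, Syt4, Rab3a and Rims2 cross.

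Samples of 1 genotype differed from each other across the arrays. For 7 of the 9 genes the control samples differed from each other by more than the mean ratio, against 55.9% of all tested probes, and for 5 of the 9 the mutant samples did, against 58.3%. These differences cross the arrays and do not use the pairing within them. For 5 of the 9 the SD of the paired ratios exceeded the mean ratio, against 53.3% of all tested probes.

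The 9 genes were normalized by loess, which sets the middle of the ratios at each brightness to 0, and 3 of them passed when each array was centred on its median instead. Snap25 then had a mean ratio of 1.01 (limma adjusted p = 0.0187), Syt4 of 0.88 (limma adjusted p = 0.0346) and Rab3a of 0.84 (limma adjusted p = 0.0417). In that setting 30.2% of all tested probes passed, and tested probes as a whole had median ratios of 0.39 (replicate 1) and 0.84 (replicate 2). Relative to those medians, Snap25 stood at 0.22 and 0.57, Syt4 at -0.00 and 0.53 and Rab3a at -0.09 and 0.54 on the arrays in turn. Rab27a stood at -0.25 and -0.41, Rims2 at -0.47 and -0.77, Unc13a at -0.38 and -0.42 and Syt7 at -0.10 and -0.11. Vamp2 stood at -0.06 and 0.17 and Stx1a at 0.17 and -0.63. Rab27a, Rims2 and Syt7 were thus below the median of the tested probes on both arrays under either normalization. That median was a single value for all brightnesses, while centring raised bright genes of the 9 more than dim ones. Rims2, a dim gene, went from -0.16 and -0.23 with loess to -0.07 and 0.07 with centring. Snap25, the brightest, went from -0.10 and 0.26 to 0.61 and 1.41. A gene's place against that median therefore depends on its brightness and adds no separate support to the loess ratios.

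**Figure D3:**
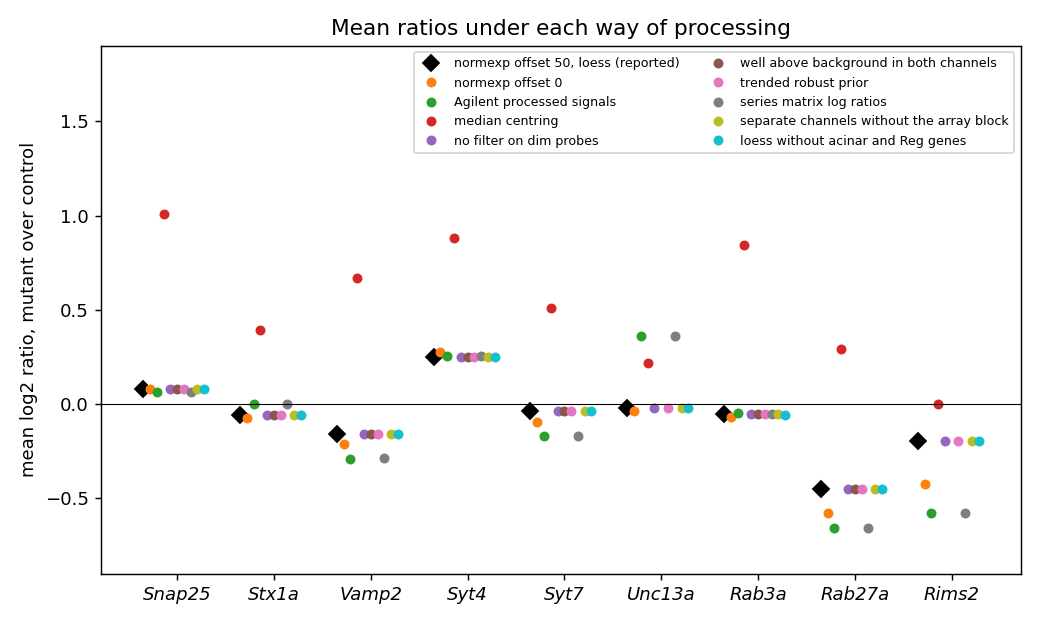
Mean log2 ratio of mutant over control of each exocytosis gene under the reported processing (diamond) and each alternative (circles); the 2 dimmest genes, Unc13a and Rims2, have no value where both channels had to be above background. Median centring lifts all 9 genes, Snap25 to 1.01, and the other settings keep Rab27a between -0.66 and -0.45.

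Beyond the 9 genes, a list of 108 further genes of the exocytosis pathway was measured, of which 92 were tested. None passed over all probes with limma (lowest adjusted p = 0.282). At an unadjusted p under 0.05 there were 7 of 92 (7.61%), fewer than the 11.4% of all tested probes. The median log2 ratios of the list were -0.00 and 0.11 on the arrays, and its median mean ratio was 0.02. On both arrays 33 genes (35.9%) were higher and 21 (22.8%) lower in the mutant, near the shares of all tested probes, and 25 (27.2%) were lower on the replicate 1 array and higher on the replicate 2 array. With median centring 24 of the 92 passed, against 30.2% of all tested probes.

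By role, 16 of 16 Q-SNARE genes of the list were tested (8 higher and 3 lower on both arrays), 7 of 7 R-SNARE genes (2 and 1), and 19 of 22 genes that bind or prime SNAREs (5 and 5). Of the calcium sensors 11 of 18 were tested (5 higher and 1 lower on both arrays), of the Rab GTPases and their partners 21 of 24 (7 and 5), of the active zone scaffolds 9 of 12 (3 and 4), and of the exocyst 9 of 9 (3 and 2). The Q-SNARE list included Snap91 by its name, although it encodes a clathrin adaptor of endocytosis.

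The highest means of genes with 1 sign on both arrays were those of Syt11, a synaptotagmin without calcium binding (0.56 and 0.40), of Madd, an exchange factor for Rab3 and Rab27 (0.26 and 0.68), of Rab3il1, a relative of Rab exchange factors (0.39 and 0.51), and of Syt1, the fast calcium sensor of neurons (0.55 and 0.31). Snap91 had 0.46 and 0.30, but neither control sample cleared the background (mean log2 level 6.19, against 6.57 in the mutant), so that only a bound of at least 1.12-fold can be given, with no dye swap behind it. The complexin gene Cplx1, which clamps SNARE complexes, had 0.49 and 0.19, the first against a control sample that did not clear the background, Snapin, which binds SNAP-25, 0.12 and 0.50, and Ppfia4, a liprin scaffold gene, 0.13 and 0.45. None of these genes passed. The second probe of Madd had a mean of 0.04, and that of Ppfia4 -0.15. The lowest mean among the 3 probes of Snapin was 0.05.

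Among genes lower on both arrays, the lowest means belonged to Baiap3, a Munc13 relative that acts on dense core vesicles (-0.33 and -0.73), and Snph, which encodes the syntaxin-binding protein syntaphilin (-0.47 and -0.28). Sytl4 encodes granuphilin, a Rab27a effector that docks insulin granules, and had ratios of -0.57 and -0.17. Rab3c had -0.49 and -0.13 on its brightest probe, while another of its 3 probes had a mean of 0.63. Rims3, a short RIM, had -0.45 and -0.16, the scaffold gene Erc1 -0.31 and -0.19, Napa, which encodes the SNARE-recycling adaptor alpha-SNAP, -0.29 and -0.19 on its brightest probe (its other probe had a mean of 0.36), and Stx5, a Golgi syntaxin gene, -0.16 and -0.31. None of these passed either, and the Erc1 probe did not clear the background in replicate 1 mutant islets.

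Close relatives of the 9 genes, named here for their kinship after their values were seen, had ratios of either sign. Rab27b, the nearest relative of Rab27a, had ratios of 0.63 and -0.19, against -0.36 and -0.55 for Rab27a; its second probe had a mean of 0.45, and the difference between the genes was not tested. Unc13b, the other Munc13 gene of islets, had 0.01 and -0.16, Rab3b -0.03 and -0.25, Vamp3 0.13 and 0.15, and Snap23, the widely expressed relative of Snap25, -0.09 and 0.18.

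The widest gaps between arrays in the list were those of Rab26, a GTPase of zymogen granules (0.01 and -1.36), Ykt6, a Golgi SNARE gene (0.34 and -0.63), Rab37, a granule GTPase gene (-0.80 and 0.09), Pclo, which encodes the calcium-binding scaffold piccolo (-0.58 and 0.24), Rab27b (0.63 and -0.19) and Syt15 (-0.22 and 0.55, the second against a control sample that did not clear the background). The replicate 2 mutant sample stood apart in acinar markers: over the 24 of 26 such genes that were tested, the median ratios were 0.41 and -5.11 on the arrays in turn. The log2 of the summed acinar intensities was 20.6 and 21.0 in the control and mutant samples of replicate 1, and 21.7 and 17.0 in those of replicate 2. Of 10 exocytosis genes known from acinar granules, Rab26 among them, 9 were tested, with medians of 0.01 and 0.08. With acinar and Reg genes left out of the loess fit, a setting added with the data in view, the mean ratios of the 9 exocytosis genes ran from -0.45 for Rab27a to 0.25 for Syt4, as before.

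Endocrine markers were also uneven between the arrays. All 25 were tested, and 12 of them (48.0%) were lower on the replicate 1 array and higher on the replicate 2 array, as were Snap25, Syt4, Unc13a and Rab3a. Their median ratios were -0.05 and 0.25. The log2 of their summed intensities was 19.8 and 20.0 in the control and mutant samples of replicate 1, and 19.8 and 20.4 in those of replicate 2. The insulin genes had ratios of -0.15 and 1.25 (Ins1) and of -0.57 and 0.71 (Ins2), and Iapp had -0.16 and 0.98. Other hormone genes of the list did not share that order. Gcg had 1.45 and -0.30, Sst 1.41 and 0.10, Ppy 2.59 and 1.02, and Pyy 1.55 and 0.76. Nerve markers, whose cells express many of the same exocytosis genes, had medians of 0.57 and 0.40 over 13 of 16 tested genes. Of these, 11 were higher in the mutant on both arrays and 1, Th, was lower (-0.52 and -0.77). The log2 of their summed intensities ran from 11.9 to 12.2 in the 4 samples, and Th was the brightest gene in that sum. Duct markers had medians of 0.46 and 0.70 (2 of 10 tested rose, with limma, where 0.382% of all tested probes passed), stromal markers 2.10 and 1.18 (6 of 11 rose), endothelial markers 0.34 and 0.58 (1 of 9 rose) and leukocyte markers -0.06 and 0.17. No probe on the array passed with an offset of 0, Agilent's processed signals, the series matrix or separate channels, so these calls depend on the processing. The endothelial gene that rose was Vwf, with means of 1.60 and 0.24 on its probes. The part of these cell types in the ratios of the exocytosis genes was not tested.

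**Figure D4:**
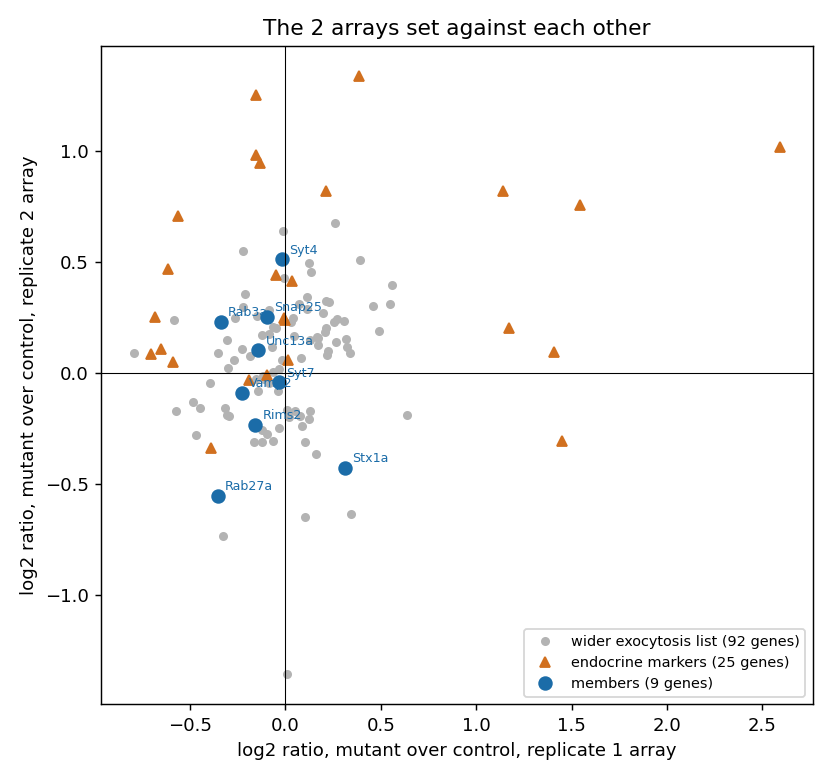
Log2 ratio of mutant over control on the replicate 1 array (x axis) against the replicate 2 array (y axis) for the 9 exocytosis genes (large circles), 92 further exocytosis genes (grey) and 25 endocrine markers (triangles). Snap25, Syt4, Unc13a and Rab3a lie in the upper left with 12 of the endocrine markers, Rab27a in the lower left and Stx1a alone among the 9 in the lower right.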

How the data were processed

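RNA of islets was amplified from 15 ng a sample, per the labels' protocols, and hybridised to 2 Agilent two-colour arrays of probes placed on mm9. The submitters' processing notes name Agilent Feature Extraction 10.7.3.1 as the image software. The intensity columns deposited hold mean spot signals, local background medians and processed signals (background-corrected, detrended, dye-normalized by linear and lowess steps), per the file headers. The deposited log10 ratios are red (mutant) over green (control), per the file headers. The deposited p-value of each ratio covers, per the file headers, error within 1 array. The same log10 ratios made up the authors' series matrix (largest difference 0 on each array), which settles its scale and direction.

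Background was corrected by normexp with an offset of 50 (limma 3.58.1, R 4.3.3) and ratios normalized by loess (span 0.3, control spots at weight 0). Spots of a probe were averaged, and 4 non-uniform gene spots on each array were dropped, none of them of the 9 genes. A probe was tested when well above background in either channel on both arrays. Ratios were tested against 0 by lmFit and eBayes (two-sided), and p-values were adjusted by Benjamini-Hochberg over 22266 probes at a threshold of 0.05. The prior had 4.90 degrees of freedom and an SD of 0.204, and the step was tested on simulated data. The number of arrays, 2, limits the precision. In the control channel 37.0% and 38.1% of gene spots were well above background on the arrays, and in the mutant channel 41.0% and 48.2%. Levels come from the loess values after quantile scaling of average brightness. The labels call the pairs independently harvested but name no animals. The p-values thus rest on the spread of the 2 paired ratios, moderated by the prior drawn from all probes. They speak for these samples only.

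For the wider list the brightest tested probe stood for a gene. Named from it were all genes past the test, the 8 highest and 8 lowest means of 1 sign on both arrays and the 6 widest gaps between arrays. Genes were matched by the name in the files. The 9 genes and all lists were chosen with earlier results of these data known. Positions in exons or UTRs were not analysed here. Alternatives were other background, normalization, filter, prior, probe, source and channel settings. Some genes of the wider list are not reported here by name.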

Additional observations from a re-analysis of the deposited data

How the results depend on the processing

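Of 70 values of the 9 genes under the 8 alternatives other than median centring, 68 kept their direction and stayed short of the threshold. The exceptions were Unc13a with Agilent's processed signals (0.36) and with the series matrix log ratios (0.36). The filter, prior and separate-channel settings reused the same loess ratios, so the direction of a gene could not change there. Agilent's processed signals and the series matrix gave nearly the same values (Rab27a, mean -0.66 in both), so they are close to 1 source. With median centring, Snap25 and Syt4 passed with their direction kept, and the means turned positive for Stx1a (0.39), Vamp2 (0.67), Syt7 (0.51), Unc13a (0.22), Rab3a (0.84, which passed), Rab27a (0.29) and Rims2 (0.000191). That setting centres on all gene probes, dim ones included, and the cause of the shift of the tested probes was not tested. There the median ratio of the 9 genes was 0.51, 3 of the 9 and 24 of the wider list passed, 8 of the 9 had 1 sign on both arrays, and 6735 of all probes passed. The count over all probes was 0 with an offset of 0, with Agilent's processed signals, with the series matrix and with separate channels, where limma gave 2471, 2351, 2355 and 1510 probes at an unadjusted p under 0.05. It was 355 without a filter on dim probes and 564 with a prior that was robust and followed brightness, and the cause was not tested. Without replicate 1 the median ratio of the 9 genes was -0.04 and without replicate 2 it was -0.14, values with no test. The median of the wider list was 0.02 both with the brightest probe of each gene and with the mean over its probes. Each array's own ratio is a pairing of mutant and control, and separate channels without the array as a block gave 0 of the 9 genes. Unc13a and Rims2 were too dim to be tested where both channels had to be above background.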
